A study of Mus musculus with 7 samples.

Results

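The genes described here carry the names of mitochondrial ribosomal proteins, and all but Mrps36 encode a protein of that ribosome. They were chosen by name, as every feature whose symbol is Mrpl or Mrps followed by a number and at most 1 letter, which gave 78 of the 32286 features counted. Their levels were followed through the stages at which mouse thymocytes become αβ or γδ T cells. All 78 passed the filter on low values, a mean of at least 5 CPM (UMIs of a gene per 1000000 UMIs of the library) over the 7 libraries, as did 9101 features in all. UMIs are molecular tags that count single transcript molecules.

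Mitochondria carry their own ribosome, which translates the few mRNAs encoded by mitochondrial DNA, all of them for subunits of the respiratory chain and ATP synthase. Its ribosomal RNAs come from mitochondrial DNA, but its proteins are encoded in the nucleus, made in the cytosol and imported. Some of them descend from bacterial ribosomal proteins and others are found only in mitochondria. Thymocytes that pass selection grow and divide fast, a state in which mitochondrial biogenesis is known to be active.

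The study sorted thymocytes lacking both CD4 and CD8 (double-negative, DN) by stage and by surface γδ T cell receptor, and profiled them with the 10x 3′ single-cell assay. WT C57BL/6 mice of 6 to 8 weeks, whose pooled thymi had been depleted of CD4+ and CD8+ cells on magnetic beads, gave 5 libraries: DN3a, the stage before selection, then DN3b and DN4 cells without (γδ-) and with (γδ+) the receptor. C57BL/6 mice of the genotype Lat-/-TCRd-H2BEGFP, which lack the signalling adaptor LAT and carry a green fluorescent reporter at the locus of the receptor δ chain, gave DN3 γδ- and DN3 γδint, the last with an intermediate surface level of the receptor. The labels give the bead depletion as a treatment of WT samples, and no age for the Lat-KO mice. The study told DN3b γδ- cells from DN3a by surface CD71, the transferrin receptor, which it links to proliferation. Its DN4 γδ- cells were CD71+ as well. DN3b γδ- and DN4 γδ- over DN3a thus compare cells that the sort itself set apart by this marker. For the Lat-KO cells the study names no CD71 gate, so they and WT DN3a may differ in gating too. Nor does it name one for the WT γδ+ cells, so γδ+ over γδ- at either stage also compares cells that were gated differently. Each library had 500 splenic B cells added.

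Each group was 1 library. Differences between groups were therefore not tested, and every interval below is a 95% interval of counting error within a library. Genotype and library cannot be told apart, nor can stage and library. Thymocyte barcodes were those with at most 1 UMI of Cd79a, Cd79b and Ms4a1 together; they numbered 5274 to 18515 per library, with medians of 5737.5 to 18506 UMIs. Spiked B cells were the barcodes with at least 5 such UMIs, 164 to 429 per library. Some of these B barcodes also held T cell transcripts, and 136 to 292 per library remained after those holding at least 10 T cell marker UMIs were left out. The stricter set is meant by B cells below unless the full set is named. Lat itself, the targeted gene, stood at 357 to 648 CPM in the WT thymocytes, and at 4.83 and 0.899 CPM in the γδ- and γδint cells of the Lat-KO. T cell markers summed to 3779 to 11256 CPM in thymocytes, and haemoglobin genes to at most 169.6 CPM, in DN4 γδ-. Of 5 NK cell genes, which summed to 7.41 to 332 CPM, Ncr1 was at 0 in all 7 libraries, Klrb1c and Klrk1 stayed under 1 CPM, and Nkg7, which T cells also use, reached 318 and 322 CPM in the γδ+ cells of DN3b and DN4. Prf1 reached 3.43 and 9.34 CPM in the same 2 libraries. Myeloid genes summed to at most 51.8 CPM, in Lat-KO DN3 γδ-. Genes of dendritic cells summed to at most 556 CPM, in DN3a, where Bst2 alone was at 548 CPM. Any 2 libraries shared 7 to 68 thymocyte barcode sequences, at most 0.660% of either.

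Upstream sequence is shown for 4 members on which the results turn. Mrpl12, Mrps22 and Mrps27 were among the 4 members furthest above WT DN3a in DN3b γδ-, and Mrpl24 was the member furthest below it. Each stretch ends at or within 38 bases before the annotated start, lies in no annotated exon, and is written 5′ to 3′ on the strand of the gene (RefSeq windows of GRCm38.p6, which covered 69 of the 78 members). Capitals mark matches to GCGC, any base and TGCGC in a row, the core bound by NRF1, or to CCGGAAG, the core bound by ETS factors, on either strand. NRF1 and the ETS factor GABP are known regulators of nuclear genes for mitochondrial proteins. Mrpl28, the other of the 4 members furthest above WT DN3a in DN3b γδ-, is not shown, and its window held neither core. The Mrps27 stretch is the whole gap between its start and that of Ptcd2, a gene for a mitochondrial RNA-binding protein that is read in the opposite direction.
Mrpl12, chr11:120484387-120484612, plus strand: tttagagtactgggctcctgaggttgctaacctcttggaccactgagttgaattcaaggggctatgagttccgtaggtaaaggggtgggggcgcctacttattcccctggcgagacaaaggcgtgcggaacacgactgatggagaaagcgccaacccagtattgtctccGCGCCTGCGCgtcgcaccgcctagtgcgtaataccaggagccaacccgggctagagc
Mrps22, chr9:98601680-98601929, minus strand: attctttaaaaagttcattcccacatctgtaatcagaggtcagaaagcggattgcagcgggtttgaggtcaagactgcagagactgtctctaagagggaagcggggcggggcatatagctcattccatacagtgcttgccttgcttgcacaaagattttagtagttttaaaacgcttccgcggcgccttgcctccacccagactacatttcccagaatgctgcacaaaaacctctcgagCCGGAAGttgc
Mrps27, chr13:99344706-99344785, plus strand: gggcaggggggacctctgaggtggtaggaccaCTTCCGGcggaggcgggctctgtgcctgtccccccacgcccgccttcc
Mrpl24, chr3:87919294-87919505, plus strand: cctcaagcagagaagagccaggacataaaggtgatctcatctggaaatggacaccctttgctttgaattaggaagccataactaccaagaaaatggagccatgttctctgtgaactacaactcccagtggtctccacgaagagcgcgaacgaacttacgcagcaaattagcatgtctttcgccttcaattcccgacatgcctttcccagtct

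Over windows of 300 bases around the start, the NRF1 core was found in 13 of the 69 members, or 18.8%, against 4.78% of 27025 windows of all genes. The ETS core was found in 25 members, or 36.2%, against 9.12% of all windows. The core bound by YY1, AAGATGG followed at once by CGGC, was found in 5 members, or 7.25%, against 0.699%. The E-box CACGTG, bound by Myc and related factors, was found in 5 members, or 7.25%, the same share as in all windows to within rounding, 7.24%. Each motif was set beside the level, and no motif went with a higher or lower median in every library. In DN3b γδ- the median log2 ratio over WT DN3a was 0.48 for the 13 members with an NRF1 core and 0.61 for the other 56, and it was 0.51 with an ETS core and 0.60 without. The 5 members with a YY1 core had 0.88 against 0.58 for the rest, and the 5 with an E-box had 0.81 against 0.59. The order differed elsewhere: E-box members had 0.57 against 0.60 in DN4 γδ-, ETS members 0.60 against 0.51 in DN3b γδ+, NRF1 members 0.72 against 0.42 in Lat-KO DN3 γδint, and YY1 members -0.06 against 0.02 in DN4 γδ+. Position was counted too. The starts of 25 of the 78 members, or 32.1%, lay within 500 bases of a protein-coding gene read the other way, against 8.90% of all protein-coding genes.

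The summed level of the 78 members was 7029.5 CPM in WT DN3a thymocytes. The γδ- cells had 10233 CPM at DN3b and 10307 CPM at DN4, the γδ+ cells 9659 CPM at DN3b and 6765 CPM at DN4. The Lat-KO libraries held 6986 CPM in DN3 γδ- and 7359 CPM in DN3 γδint. Members thus took 0.677% of all thymocyte UMIs at the lowest and 1.03% at the highest. Among the 5 WT libraries, the highest level fell in DN3b γδ- for 34 members, in DN4 γδ- for 27, in DN3b γδ+ for 13, in DN3a for 3 and in DN4 γδ+ for 1. The lowest WT level was in DN3a for 37 members and in DN4 γδ+ for another 37. These placements were not counted for all features, so they do not show that members differ from other genes.

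**Figure D1:**
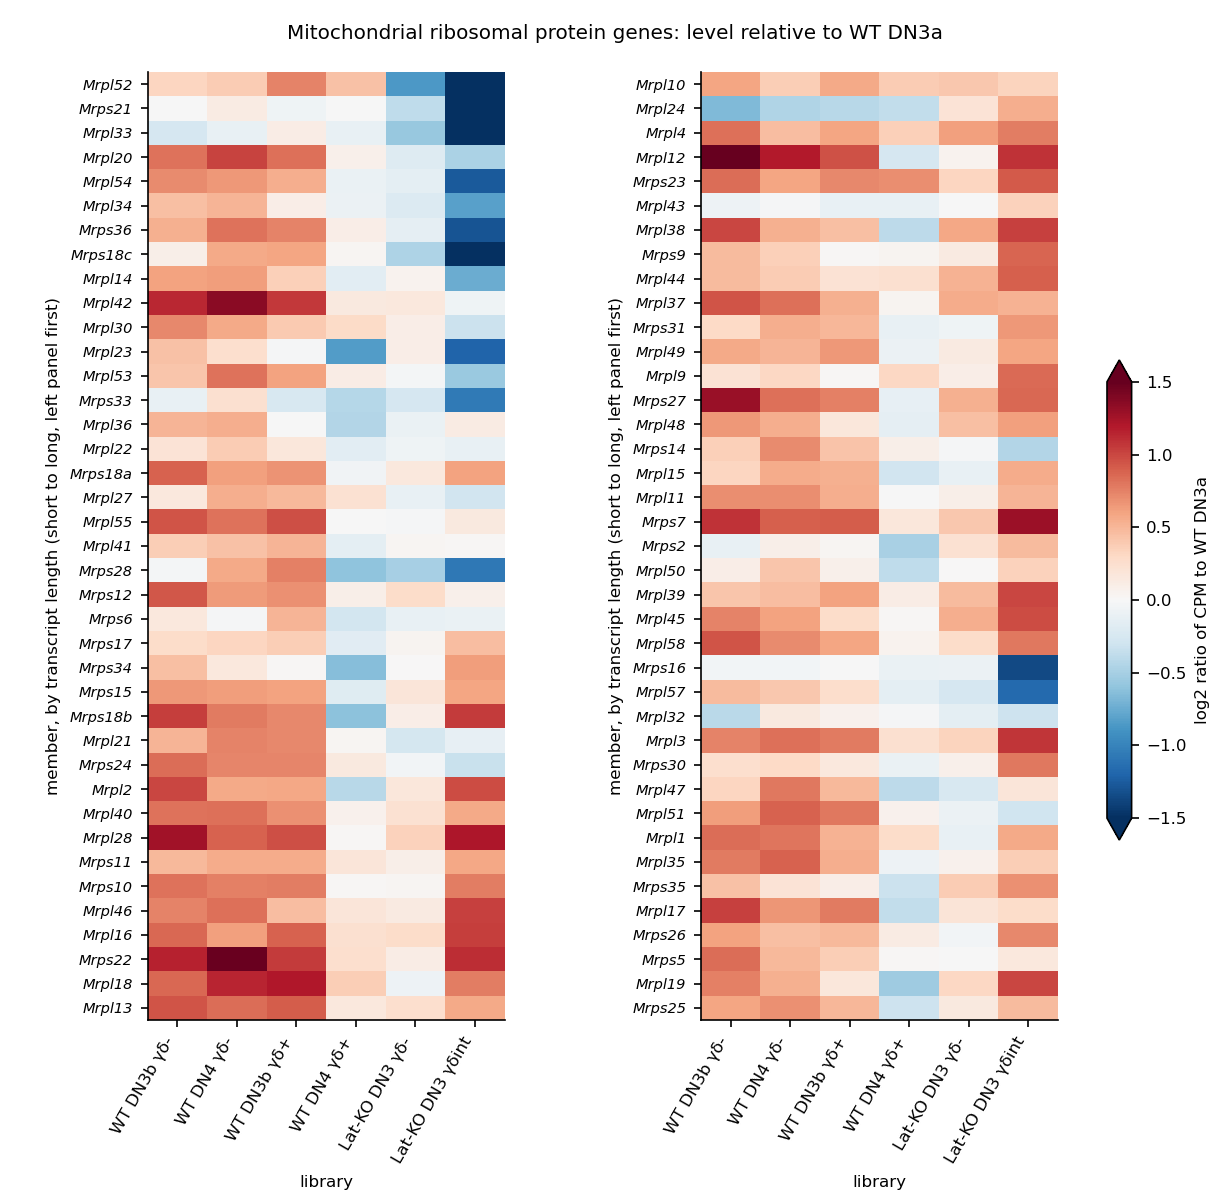
Log2 ratio of CPM to WT DN3a for each of the 78 members (rows, ordered by the length of their transcripts) in the other 6 libraries (columns), with colours saturating at 1.5 either way. The first 3 columns are mostly red, the next 2 pale, and the last runs from blue among short transcripts to red among longer ones.

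The first comparison asked how members changed as cells passed selection on the pre-TCR, from DN3a to DN3b γδ-. In DN3b γδ-, 41 of 78 members were at least 1.5-fold higher, against 19.9% of 9100 features, and 1 was at least 1.5-fold lower, against 29.8%. The median log2 ratio of the members was 0.60, with medians of their lower and upper limits of 0.55 and 0.64, while that of all features was -0.11. Mrpl12, the stalk protein that recruits translation factors to the large subunit, stood furthest apart. It was at 142 CPM in DN3a. The γδ- cells had 439 CPM at DN3b and 325 CPM at DN4, the γδ+ cells 274 CPM at DN3b and 119 CPM at DN4, and the Lat-KO cells 148 CPM (γδ-) and 300.3 CPM (γδint). Its log2 ratio in DN3b γδ- was 1.63 (1.60 to 1.66).

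The next in size were Mrps27, a pentatricopeptide repeat protein of the small subunit, at 1.30 (1.18 to 1.42) on the log2 scale, Mrpl28 at 1.26 (1.22 to 1.30) and Mrps22, a small-subunit protein found only in mitochondria, at 1.15 (1.07 to 1.24). Mrps22 was at 21.7 CPM in DN3a, at 48.2 and 60.7 CPM in the γδ- cells of DN3b and DN4, at 44.8 and 25.8 CPM in the γδ+ cells of DN3b and DN4, and at 23.5 (γδ-) and 46.8 CPM (γδint) in the Lat-KO. DN3b γδ-, DN4 γδ-, DN3b γδ+ and Lat-KO DN3 γδint thus sat high for both genes, and DN3a, DN4 γδ+ and Lat-KO DN3 γδ- sat low. Mrpl24, a large-subunit protein of bacterial descent, ran the other way. It was at 162 CPM in DN3a, at 103 and 118 CPM in the γδ- cells of DN3b and DN4, at 122 and 126 CPM in the γδ+ cells, and at 186 (γδ-) and 237 CPM (γδint) in the Lat-KO. Its log2 ratio in DN3b γδ- was -0.66 (-0.69 to -0.62), and it was the 1 member past the fold downwards. Of the 8 members below 0 but within the fold, the lowest were Mrpl32 at -0.41 (-0.45 to -0.37), Mrpl33 at -0.25 (-0.28 to -0.22) and Mrps33 at -0.11 (-0.14 to -0.09).

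**Figure D2:**
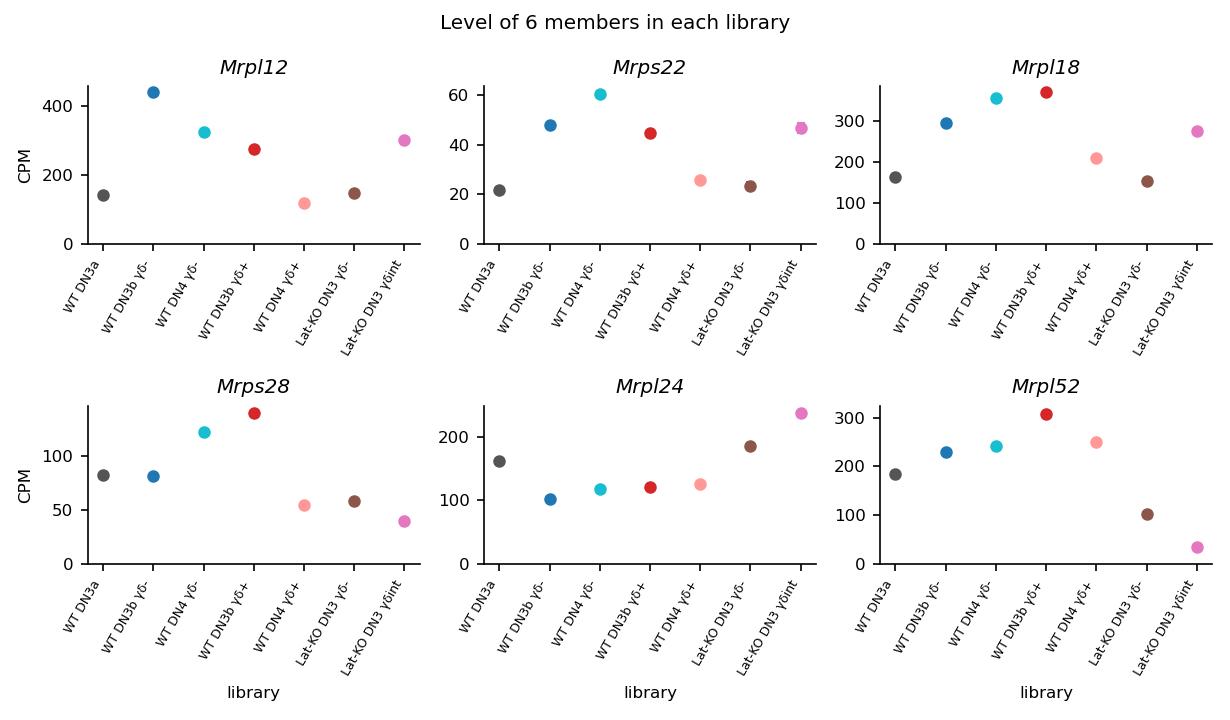
CPM of 6 members in each of the 7 libraries, with bars of 95% counting error (normal approximation), mostly smaller than the points. Mrpl12, Mrps22 and Mrpl18 were high in DN3b γδ-, DN4 γδ-, DN3b γδ+ and Lat-KO DN3 γδint, Mrpl24 was low in WT libraries after DN3a, Mrps28 was high in DN3b γδ+ (139 CPM) and low in Lat-KO DN3 γδint and DN4 γδ+, and Mrpl52 was lowest in Lat-KO DN3 γδint.

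DN4 γδ- resembled DN3b γδ- in its members. Of 78, 37 were at least 1.5-fold above DN3a, against 16% of features, and none was that far below, against 33.9%, with a median log2 ratio of 0.57 (medians of the limits, 0.52 and 0.62). Set directly against DN3b γδ-, DN4 γδ- had a median of 0.0048 (medians of the limits, -0.02 and 0.03), and the fold was passed by 1 member upwards, against 2.21% of features, and by none downwards, against 8.75%. The B cells of this pair had a median of 0.30, and of -0.11 in the full set. That member was Mrps28, at 0.59 (0.57 to 0.61).

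The transition to the γδ lineage was read from DN3b γδ+ over DN3a. Here 32 members were at least 1.5-fold higher, against 19.9% of features, and none was that far lower, against 27.8%. The higher count rested on the scaling: with totals free of cytosolic ribosomal protein and mitochondrially encoded genes it was 14 of 78, next to 15% of features, with 1 lower. The median log2 ratio was 0.53, with medians of the limits of 0.47 and 0.59. Mrpl18, which binds the RNA of the central protuberance of the large subunit, led with 1.20 (1.16 to 1.23), followed by Mrpl42 at 1.06 (1.01 to 1.10), Mrps22 at 1.05 (0.96 to 1.14) and Mrpl55 at 0.97 (0.91 to 1.03). Mrpl42 shares sequence with an annotated copy, Gm6419, so its count is less certain. The lowest were Mrpl24 at -0.41, Mrps33 at -0.25, Mrpl43 at -0.11 and Mrps21 at -0.06. Across DN3b γδ-, DN4 γδ- and DN3b γδ+, which share DN3a as their reference, 23 members were past the fold upwards in all 3, against 12.1% of features, among them Mrpl12, Mrpl18, Mrps7, Mrps12, Mrps22, Mrps27 and Mrpl58.

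Between the lineages at DN3b the difference was small. DN3b γδ+ over DN3b γδ- gave a median log2 ratio of -0.10 (medians of the limits, -0.13 and -0.07), with 28 members above 0 and 50 below. The fold was passed by 1 member upwards, against 11.6% of features, and by 2 downwards, against 9.68%. The first was Mrps28, a small-subunit protein, at 0.78 (0.76 to 0.81), with 139 CPM in DN3b γδ+ and 81.0 CPM in DN3b γδ-. The others were Mrpl12 at -0.68 (-0.69 to -0.66) and Mrpl19 at -0.59 (-0.62 to -0.56). The B cells had a median of 0.14 for this pair of libraries, and the full set of B barcodes one of -0.15. With the totals free of ribosomal protein and mitochondrially encoded genes, 1 member was higher and 5 were lower, against 9.33% and 13.6% of features.

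At DN4 the γδ+ and γδ- libraries stood further apart, in a comparison added after its values were seen. The γδ- cells were sorted as CD71+, and the study names no such gate for the γδ+ cells. The share of thymocyte barcodes with at least 5 cell cycle UMIs of 4000 was 97.2% in DN4 γδ- and 25.2% in DN4 γδ+. The comparison was not split by these UMIs, so lineage, gating and cell cycle RNA cannot be told apart in it. DN4 γδ+ over DN4 γδ- gave a median of -0.66 (medians of the limits, -0.70 and -0.61), whereas all features had 0.18. Of 78 members, 46 were at least 1.5-fold lower, against 18% of features, and none was that far higher, against 31.5%. TMM scaling gave 66 lower and none higher, against 30% and 20.4%, and totals free of ribosomal protein and mitochondrially encoded genes gave 55 and none, against 20.1% and 28.9%. The B cells of these libraries had a median of -0.56, near that of the thymocytes, and -0.67 in the full set.

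In DN4 γδ+ the members were low again. Over DN3b γδ+, 37 of 78 members were at least 1.5-fold lower, against 17% of features, and none was that far higher, against 23.7%. The median log2 ratio was -0.55 (medians of the limits, -0.60 and -0.51), whereas that of all features was 0.10. With TMM scaling 59 were lower and none higher, against 29.5% and 13.4% of features, and with totals free of ribosomal protein and mitochondrially encoded genes 29 were lower and none higher, against 15% and 26.5%. The 4 at least 2-fold lower, against 6.62% of features, were Mrps28 at -1.37 (-1.42 to -1.32), Mrps18b at -1.33 (-1.39 to -1.26), Mrpl12 at -1.20 (-1.24 to -1.17) and Mrpl17 at -1.15 (-1.20 to -1.10). Mrps18b is the member of the S18 family that sits in the small subunit beside Mrps18c, whereas Mrps18a sits in the large subunit. Mrpl9 was furthest above 0, at 0.30 (0.25 to 0.35). The B cells of the same libraries had a median of -0.37, and -0.61 in the full set; taken off the thymocyte median, these left -0.18 and 0.062, with 6 and 3 members lower, against 7.49% and 4.32% of features moved by the same amount. Among barcodes with at least 5 cell cycle UMIs of 4000, 8 were lower, against 6.81%, among those with fewer 27, against 18.5%, and among those with at most 1 such UMI 29, against 21.5%.

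Relative to DN3a, DN4 γδ+ had a median of -0.01 (medians of the limits, -0.08 and 0.04). The fold was passed by 1 member upwards, against 16% of features, and by 4 downwards, against 16.2%. The member above was Mrps23 at 0.69 (0.63 to 0.76), and it was also the only member at least 1.5-fold above DN3a in all 4 later WT libraries, which 5.44% of features were: 51.2 CPM in DN3a, 91.6 and 77.2 CPM in the γδ- cells of DN3b and DN4, and 84.3 and 82.8 CPM in the γδ+ cells. It was followed by Mrpl52 at 0.44, Mrpl10, which anchors the L12 stalk, at 0.38, and Mrpl18 at 0.37. Those below were Mrpl23 at -0.83, Mrps34 at -0.63, Mrps18b at -0.61 and Mrps28 at -0.61. Mrpl23, a protein of the peptide exit, also shares sequence with the copy Mrpl23-ps1.

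**Figure D3:**
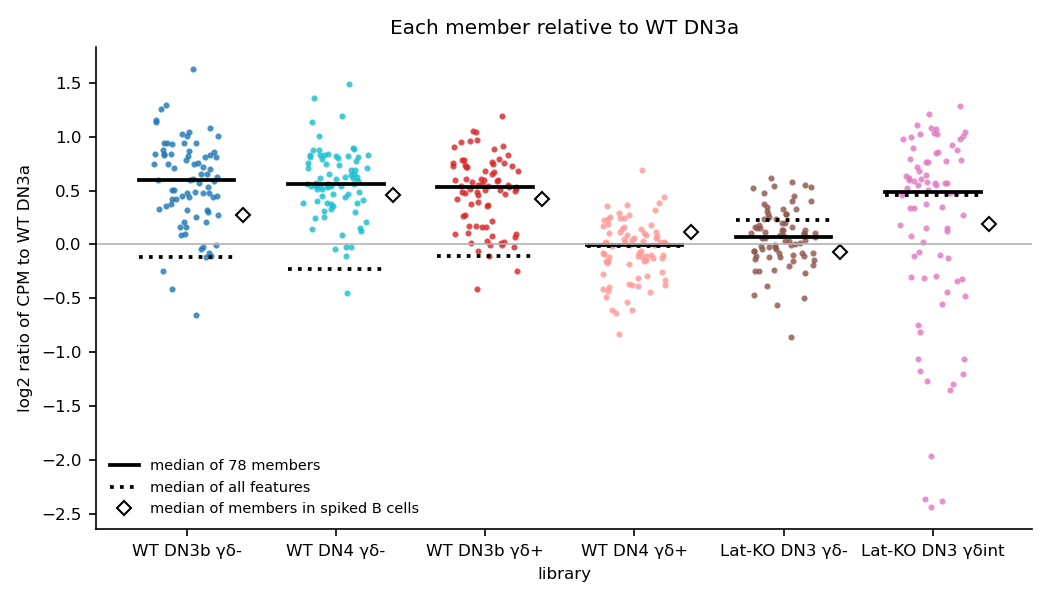
Log2 ratio of CPM to WT DN3a, with 1 point per member in each library, solid lines at the members' median, dotted lines at the median of all features and diamonds at the members' median in the stricter set of spiked B cells. In DN3b γδ-, DN4 γδ- and DN3b γδ+ the solid lines stand at 0.60, 0.57 and 0.53 over dotted lines below 0, and the diamonds at 0.27, 0.46 and 0.42.

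The spiked B cells, present in every library, served as a check for differences between libraries, though thymocyte RNA in their barcodes could enter it. Their members, too, were above those of DN3a in the 3 libraries where the thymocyte medians were highest. The median log2 ratio over the B cells of WT DN3a was 0.27 in DN3b γδ-, 0.46 in DN4 γδ- and 0.42 in DN3b γδ+, but 0.11 in DN4 γδ+ and -0.07 in Lat-KO DN3 γδ-. With the median of 23.5 UMIs per member in the smaller set of B cells, the medians of the limits in DN3b γδ- ran from -0.43 to 1.07. All features had B cell medians of 0.28, 0.12 and 0.18 in the same 3 libraries, so in DN3b γδ- the members of the B cells did not stand above other features. The order differed as well, since DN3b γδ- was the highest of the 3 in thymocytes and the lowest in B cells. Cell cycle genes moved in the same B barcodes. Their summed level was 230 CPM in the B cells of DN3a and 1233, 1738 and 1827 CPM in those of DN3b γδ-, DN4 γδ- and DN3b γδ+, beside 6077, 5953 and 5939 CPM in the thymocytes. The share of thymocyte RNA in the B barcodes was not tested. In the full set of B barcodes the medians were higher still, at 0.87, 0.75 and 0.74, above those of the thymocytes themselves, and 0.14 in DN4 γδ+ and 0.16 in Lat-KO DN3 γδ-. The full set held 3899499, 1512714 and 1875549 UMIs in the same 3 libraries, and the stricter set 760997, 593826 and 545261. In DN3a these were 754196 and 518050. The rest came from barcodes with at least 10 T cell marker UMIs, so the full set can take thymocyte signal off as well. Taking the B cell median off the thymocyte median left 0.32, 0.10 and 0.11 with the stricter set and -0.27, -0.19 and -0.21 with the full set, so the direction of these 3 results depends on which B barcodes are used. The members past the fold upwards then numbered 18, 4 and 3 with the stricter set, against 12.4%, 7.08% and 10% of features moved by the same amount, and 1, 2 and 0 with the full set, against 4.82%, 4.76% and 6.47%. With the stricter set the share of members past the fold upwards was thus above that of all features in DN3b γδ- alone of the 3, and with the full set in none. Only the upward side is counted here. After the same move, 40.7%, 55.3% and 47.3% of features were at least 1.5-fold lower with the stricter set. Features were moved by the members' B cell medians, which in DN4 γδ- and DN3b γδ+ were above their own. These shares therefore cannot decide whether members stood apart from other features.

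Scaling also set the size of the difference. TMM scaling, which sets library sizes from a trimmed mean of gene ratios, moved every log2 ratio of DN3b γδ-, DN4 γδ- and DN3b γδ+ over DN3a up by 0.36, 0.36 and 0.32, and the counts of members at least 1.5-fold higher became 63, 68 and 57, against 33.8%, 28.8% and 32.3% of features, with none that far lower, against 18.1%, 21.4% and 17.7%. All features then had medians of 0.25, 0.13 and 0.21; a scaling moves members and features by the same amount. Totals without cytosolic ribosomal protein and mitochondrially encoded genes moved the ratios down instead. The counts of members higher became 34, 31 and 14, against 17.4%, 14.7% and 15% of features, and those lower 1, 0 and 1, against 33%, 35.6% and 35.3%, so in DN3b γδ+ the share of members higher was close to that of all features. The fold mattered as well: at least 2-fold above DN3a were 10, 5 and 3 members, against 9.87%, 7.59% and 10.2% of features. Upwards at that fold the members were thus near or under the share of all features. Downwards, 16.8%, 19.8% and 15.6% of features were at least 2-fold lower. No member was, since the lowest log2 ratios were -0.66, -0.46 and -0.41.

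Lat-KO DN3 γδ- stayed close to WT DN3a. The median was 0.07 (medians of the limits, 0.01 and 0.13), below the 0.23 of all features. The fold was passed by 1 member upwards, against 17% of features, and by 1 downwards, against 3.17%. These were Mrpl4 at 0.62 (0.55 to 0.69) and Mrpl52 at -0.86 (-0.91 to -0.81). Just under the fold were Mrpl38 at 0.58, Mrpl37 at 0.55 and Mrpl45, which ties the ribosome to the inner membrane, at 0.55 upwards, and Mrpl33 at -0.57, Mrps28 at -0.50 and Mrps18c at -0.47 downwards. Mrpl52, Mrpl33 and Mrps18c have transcripts under 700 nt, a length at which members had a median of -0.15 here and other features one of -0.17. With TMM scaling the median was -0.10, and none was higher and 4 were lower, against 8.76% and 5.45% of features. Totals without ribosomal protein and mitochondrially encoded genes also gave none higher and 4 lower, against 10.1% and 4.8%.

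In Lat-KO DN3 γδint the members spread apart. Over WT DN3a, 31 were at least 1.5-fold higher, against 40.5% of features, and 13 were that far lower, against 7.43%. The median was 0.49 (medians of the limits, 0.41 and 0.58), next to 0.46 for all features. With TMM scaling 10 were higher and 21 lower, against 13.8% and 14.9% of features, and with the totals just named 13 were higher and 21 lower, against 17.5% and 12.6%. At least 2-fold higher were 11, against 13.9%, and 2-fold lower 11, against 4.63%. In the B cells the members' median was 0.19, over the 77 with enough counts, and that of all features 0.56. In the full set of B barcodes the members' median was 0.55, so the thymocyte median less that of B cells was 0.30 with the stricter set and -0.063 with the full set. The highest were Mrps7 at 1.28 (1.22 to 1.35), Mrpl28 at 1.21 (1.16 to 1.27), Mrps22 at 1.11 (1.004 to 1.22) and Mrpl12 at 1.08 (1.04 to 1.12). The lowest were Mrpl52 at -2.44 (-2.53 to -2.36), Mrps21 at -2.38 (-2.47 to -2.30), Mrpl33 at -2.36 (-2.43 to -2.29) and Mrps18c at -1.97 (-2.06 to -1.87). Mrpl52 was at 185 CPM in WT DN3a and between 229.9 and 308 CPM in the later WT libraries, but at 102 CPM in the γδ- and 34.003 CPM in the γδint cells of the Lat-KO. The 4 lowest members were also low in the B cells of that library, at -2.12 (-2.89 to -1.42), -2.94 (-4.31 to -1.81), -2.54 (-4.07 to -1.30) and -2.43 (-3.97 to -1.18) in the same order. Of the 4 highest, Mrpl28 and Mrpl12 were also high in B cells, at 1.06 (0.29 to 1.87) and 1.04 (0.42 to 1.67), Mrps22 was at 0.97 (-0.32 to 2.34), and Mrps7 was at 0.30 (-0.35 to 0.95).

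The ratios of this library followed the length of the transcript. The 13 members with transcripts under 700 nt had a median of -1.20, the 17 of 700 to 1000 nt a median of 0.07, the 19 of 1000 to 1500 nt a median of 0.77, the 13 of 1500 to 2500 nt a median of 0.62 and the 16 longer ones a median of 0.42. Other features of the same lengths had medians of -1.23, 0.13, 0.65, 0.66 and 0.41. The B cells gave the members medians of -1.01, 0.04, 0.91, 0.38 and 0.73. Members and other features were thus both lowest under 700 nt, and none of these medians was below 0 above that length. Cytosolic ribosomal proteins had a median of -1.47 in this library and nuclear subunits of oxidative phosphorylation a median of -1.09. In DN3b γδ-, by contrast, the median of members lay between 0.42 and 0.83 in every length class, and that of other features lay between -0.25 and 0.05. Lat-KO DN3 γδ- showed a smaller difference by length. From the shortest class to the longest, its members had medians of -0.15, -0.02, 0.23, 0.13 and 0.03 over WT DN3a. Other features had -0.17, 0.05, 0.22, 0.33 and 0.24.

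**Figure D4:**
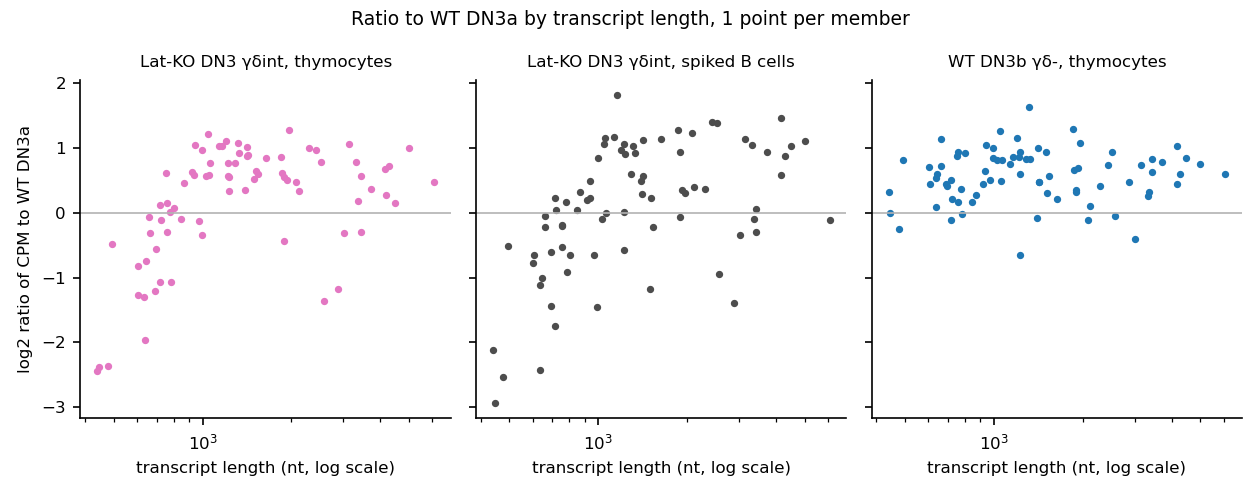
Log2 ratio of CPM to WT DN3a of each member against the length of its transcript (nt, log scale), for thymocytes and spiked B cells of Lat-KO DN3 γδint and for thymocytes of WT DN3b γδ-. Short transcripts lie far below 0 in both kinds of cell of Lat-KO DN3 γδint, and no such slope is seen in DN3b γδ-.

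The comparison of Lat-KO DN3 γδint with Lat-KO DN3 γδ-, which share a genotype, asked what goes with the surface receptor in the absence of LAT. It had a median of 0.32 (medians of the limits, 0.25 and 0.39), with 21 members higher, against 17.7% of features, and 12 lower, against 7%. With TMM scaling 7 were higher and 16 lower, against 8.27% and 12.3% of features, and totals without ribosomal protein and mitochondrially encoded genes gave 8 and 16, against 9.4% and 10.9%. The highest was Mrpl12 at 1.03 (0.98 to 1.07), with 0.89 (0.34 to 1.44) in B cells, and the lowest was Mrps21 at -1.998 (-2.09 to -1.91), with -2.63 (-3.996 to -1.51) in B cells. Members under 700 nt had a median of -1.11 in thymocytes and -0.75 in B cells, and all members together a B cell median of 0.19, or 0.20 in the full set.

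Some counts are less certain because another annotated gene could share the reads. Among the members named above, Mrps21 has a near-identical copy (Gm6181), and exons of Mrpl33, Mrps18c and Mrps34 overlap those of Gm43809, Gm43511 and Nme3 on the same strand. Of members named below, Mrps10 has a near-identical copy (AC154457.3), and exons of Mrpl51 overlap Mir3098 on the same strand.

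The medians of both subunits were above 0 in DN3b γδ-, DN4 γδ- and DN3b γδ+. The 51 members of the large subunit, counting Mrps18a and Mrps30, which sit there despite their names, had a median of 0.66 in DN3b γδ- over DN3a, with 29 past the fold upwards, and the 26 of the small subunit had 0.48, with 12 past it, both against 19.9% of features. In DN4 γδ- these were 0.57 and 0.56, and in DN3b γδ+ 0.53 and 0.51. The summed level of the large subunit was 1.97 times that of the small subunit in DN3a and 2.02 to 2.21 times in the other libraries. Members with a bacterial homologue (45) and those found only in mitochondria (32) had medians of 0.60 and 0.60 in DN3b γδ-. Mrps36, a subunit of the 2-oxoglutarate dehydrogenase complex that carries a ribosomal name, was at 109.9 CPM in DN3a, at 159 and 193 CPM in the γδ- cells of DN3b and DN4, at 184 and 118 CPM in the γδ+ cells, and at 99.7 (γδ-) and 44.8 CPM (γδint) in the Lat-KO. It followed the ribosomal members in WT libraries, but has annotated copies, Mrps36-ps1 and Mrps36-ps2, that could share its reads.

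Members picked for their role varied in how far they moved. Mrps12, at the decoding centre, was at 95.6 CPM in DN3a and 182 CPM in DN3b γδ-. Mrpl58, which frees stalled ribosomes, went from 122 to 235 CPM between these libraries, and Mrps18a from 70.8 to 130.3 CPM. Mrpl11, which with Mrpl10 and Mrpl12 forms the binding site for translation factors, went from 78.4 to 127 CPM and Mrpl10 from 19.4 to 29.3 CPM. Mrpl45 went from 34.6 to 58.0 CPM. Smaller differences were seen for Mrpl44, with 27.3 and 37.9 CPM, and Mrps30, with 47.4 and 56.6 CPM. Of these, Mrps12, Mrpl58, Mrps18a, Mrpl11, Mrpl10 and Mrpl45 were past the 1.5-fold mark, and Mrpl44 and Mrps30 were not. The 5 members with the highest mean CPM were Mrpl18 (261), Mrpl12 (249), Mrpl23 (242), Mrps14 (236) and Mrps33 (230); each molecule is counted at its end, and these levels are not divided by length. Mrps14 and Mrps33 went from 205 and 268 CPM in DN3a to 263 and 247 CPM in DN3b γδ-, a log2 ratio of 0.36 for the first.

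The 7 libraries differed in the RNA of cell cycle genes. When each thymocyte barcode was thinned to 4000 UMIs, 20.98% of the barcodes of DN3a and 25.2% of those of DN4 γδ+ held at least 5 UMIs of 27 cell cycle genes, against 96.3% to 97.7% in DN3b γδ-, DN4 γδ- and DN3b γδ+. In the Lat-KO libraries these shares were 23.1% in γδ- and 66.1% in γδint. The barcodes deep enough to be thinned numbered 4537 to 17673 per library. These shares do not count dividing cells, since B cells passed the same limit: 16.7% (5.64 to 34.7) of those in DN3b γδ-, 53.3% (34.3 to 71.7) in DN4 γδ- and 62.7% (48.1 to 75.9) in DN3b γδ+, beside 0 to 3 B cells in each of the other 4 libraries, with 23 to 57 B cells deep enough per library (Clopper-Pearson intervals). The levels themselves differed more, at medians of 22, 21 and 20 cell cycle UMIs of 4000 in the thymocytes of these 3 libraries and 3, 5 and 5 in their B cells. In DN3a the median was 3 in thymocytes and 1 in B cells, and the genes of the list with the highest levels there were Uhrf1 at 204 CPM, Mcm6 at 149.9 CPM and Pcna at 146 CPM, which act in DNA replication, whereas Mki67 was at 10.1 CPM. The limit of 5 thus splits barcodes by this RNA and not into dividing and resting cells. Within every library the members were higher in the barcodes at or above it. Their summed level in DN3a was 7921 CPM (7874 to 7968) in these barcodes and 6739 CPM (6713 to 6765) in the others. In DN3b γδ- it was 10261 CPM (10250 to 10272) and 8292 CPM (8192 to 8393), and in DN4 γδ+ 7842 CPM (7810 to 7874) and 6015 CPM (5991 to 6040). The median log2 ratio of barcodes above over those below the limit of the same library ran from 0.16 in Lat-KO DN3 γδ- to 0.41 in DN4 γδ-, while cytosolic ribosomal proteins had medians between -0.20 and -0.03. The classes were not matched for cell cycle UMIs between stages. Over all thinned thymocytes, the 95th percentile was 9 such UMIs in DN3a and the 5th percentile was 8 in DN3b γδ-. Within either class the medians between stages were smaller: the median of DN3b γδ- over DN3a was 0.41 among barcodes above the limit and 0.35 among the others, of which DN3b γδ- had 398. For DN3b γδ+ these were 0.34 and 0.33, and for DN4 γδ- 0.40 and 0.27. The last 2 libraries had B cell medians of 0.42 and 0.46, above either class, and DN3b γδ- one of 0.27. Among barcodes with at most 1 cell cycle UMI, of which these libraries had 37 to 68, the medians were 0.24 (DN3b γδ-), 0.28 (DN3b γδ+) and, lowest, 0.12 (DN4 γδ-). Among barcodes above the limit 22 members of DN3b γδ-, 14 of DN4 γδ- and 6 of DN3b γδ+ were at least 1.5-fold above DN3a. The shares of features were 12.8%, 8.6% and 13.3%, so in DN3b γδ+ the share of members higher was under that of all features. Among barcodes with fewer than 5 cell cycle UMIs the counts of members higher were 17, 5 and 14, against 12.8%, 9.35% and 15.4%, and among those with at most 1 they were 15, 7 and 11, against 16.6%, 16% and 19.2%. These counts cover the upward side only. Among barcodes above the limit, 24.6%, 28.7% and 22.5% of features were at least 1.5-fold lower.

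**Figure D5:**
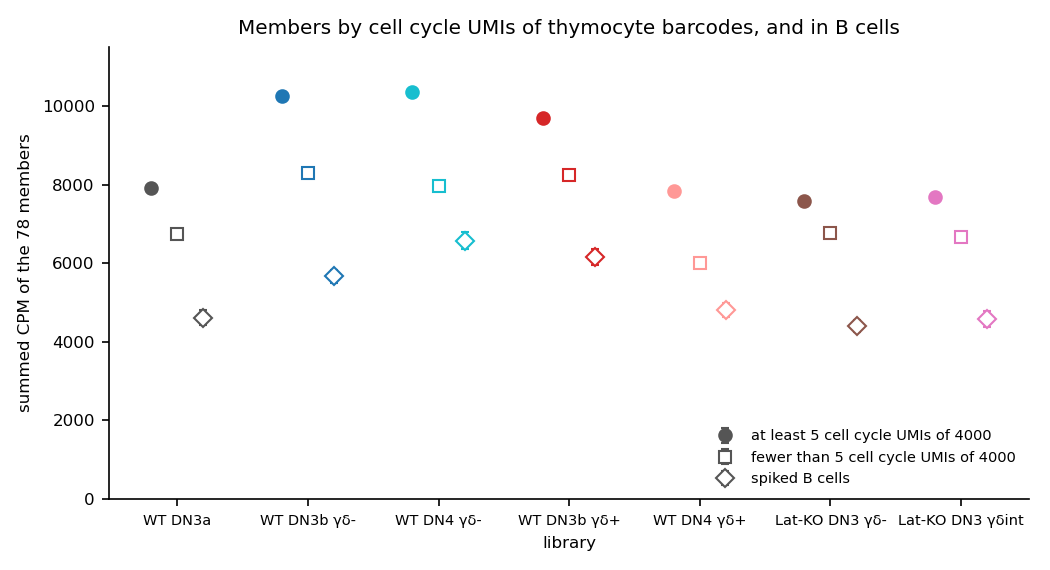
Summed CPM of the 78 members in thymocyte barcodes with at least 5 cell cycle UMIs of 4000 (filled circles), in those with fewer (squares) and in spiked B cells (diamonds), with 95% counting intervals. In every library the circles lie above the squares and the squares above the diamonds, and DN3b γδ-, DN4 γδ- and DN3b γδ+ are highest in each class.

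Single barcodes showed the same order. A thymocyte barcode thinned to 4000 UMIs held a median of 27 member UMIs from 21 different members in DN3a, 40 from 29 in γδ- cells of either later stage, 38 from 28 in DN3b γδ+, and 25 from 20 in DN4 γδ+. In the Lat-KO it held 27 from 22 (γδ-) and 28 from 23 (γδint). Unthinned, a thymocyte carried a mean of 55.4 member UMIs in DN3a and 187 in DN3b γδ-, of 7881 and 18293 UMIs in all.

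Other genes of mitochondrial translation were read against the same 19.9% of features higher and 29.8% lower in DN3b γδ-. Of 5 further ribosomal proteins without an Mrp name, 3 were at least 1.5-fold above DN3a in DN3b γδ- and none was that far below; Dap3, a GTP-binding protein of the small subunit, went from 54.3 to 144 CPM. Of 23 assembly factors, 4 were higher and 1 was lower, with a median of -0.01, so the share higher was near that of all features. C1qbp, the most abundant of them, was at 253 CPM in DN3a, 468.5 in DN3b γδ- and 130.5 in DN4 γδ+. Of 12 translation factors, 3 were higher, among them the elongation factors Tufm, from 32.8 to 73.3 CPM, and Gfm1, from 14.03 to 31.3 CPM, and none was lower. Of 17 mitochondrial tRNA synthetases, also near that share, 3 were higher and 1, Lars2, was lower, from 145 to 17.8 CPM. Of 12 genes for expression of mitochondrial DNA, 3 were higher and 3 lower, and Tfam, which packages that DNA, was at 65.5 and 74.3 CPM. Nuclear subunits of oxidative phosphorylation had a median of 0.43, with 29 of 76 higher and none lower, while 89 cytosolic ribosomal proteins had a median of 0.02.

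As a share of the UMIs of a library, the mRNAs that the mitochondrial ribosome translates went the other way. UMIs per thymocyte barcode rose from 7881 in DN3a to 18293 in DN3b γδ-, 18809 in DN4 γδ- and 15843 in DN3b γδ+. A lower share thus need not be a lower count per cell. All 13 mRNAs of mitochondrial DNA together made up 69589.7 CPM in DN3a, 27685 and 35444 CPM in the γδ- cells of DN3b and DN4, and 29228 and 40259 CPM in the γδ+ cells. In DN3b γδ- over DN3a, 12 of the 13 were at least 1.5-fold lower, against 29.8% of features, with a median of -1.26, and mt-Nd1 was at 0.08. The count was 9 in DN4 γδ-, against 33.9%, and 11 at both stages of γδ+ cells, against 27.8% at DN3b and 16.2% at DN4. In the Lat-KO, 5 (γδ-) and 6 (γδint) were lower, against 3.17% and 7.43%, with medians of -0.42 and -0.54. The B cells showed part of this too: the 13 mRNAs summed to 71001 CPM in the B cells of DN3a and to 41446, 48349 and 45846 CPM in those of DN3b γδ-, DN4 γδ- and DN3b γδ+, but to 67476 CPM in DN4 γδ+, and to 71342 (γδ-) and 71473 CPM (γδint) in the Lat-KO, where they were not below DN3a.

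Members that share a start region with another gene did not always move with it. Mrps11 and Mrpl46, which lie head to head with overlapping starts, had log2 ratios over DN3a of 0.48 and 0.75 in DN3b γδ-, 0.55 and 0.83 in DN4 γδ- and 0.56 and 0.46 in DN3b γδ+. Mrps12 and its neighbour Sars2, a mitochondrial tRNA synthetase, were at 0.93 and 1.19 in DN3b γδ-, and Mrps27 and Ptcd2 at 1.30 and 0.56. Mrpl51 was at 0.63 beside 2.39 for Ncapd2, a condensin subunit. Mrps7 was at 1.08 beside -0.98 for Gga3. Mrpl49 was at 0.57 beside 0.02 for Fau, which encodes a cytosolic ribosomal protein.

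A member's course over the 7 libraries was compared with the median course of all 78. As a description over 7 libraries, in which the members share library, depth and total, Pearson's r was at least 0.8 for 34 members and at or under 0 for 5, with a median of 0.75. The share of other features with such an r was not computed. Mrpl11 (r = 0.998), Mrpl40 (r = 0.99) and Mrps10 (r = 0.98) were closest to the median course, and Mrpl24 (r = -0.33) was furthest from it.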

How the data were processed

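The deposited files hold UMI counts per gene and barcode, made by the authors with Cell Ranger on mm10 and neither scaled nor corrected. The matrix headers name Cell Ranger 4.0.0 and the submitters' processing notes Cell Ranger 5.0.1 (with R 3.6.3 and Seurat 3.1.5). As in the study, a barcode needed 200 genes and no more than 15% of its UMIs from mitochondrial genes. UMIs were summed over the thymocyte or B barcodes of a library and given as CPM. Log2 ratios have exact conditional binomial 95% intervals, shares have Clopper-Pearson ones, and both cover counting error only. The interval of a list median is the pair of medians of its members' limits. A gene needed at least 3 counts in 1 of the 2 libraries. No test was run, as each group is 1 library; the calculation was tested on simulated counts. A call means at least 1.5-fold, and 2-fold was an alternative. Thymocyte libraries held 37820685 to 338698944 UMIs. No doublet caller was run. Barcodes with B cell markers were set aside, and an alternative left out the 8% with the most UMIs. Barcodes between the thymocyte and B cell limits were in neither class. They were 894 of 7876 passing quality in DN3a, 1339 of 8071 in Lat-KO DN3 γδ- and 1009 of 6474 in Lat-KO DN3 γδint. DN3b γδ- had 1305 of 20249, DN4 γδ- 465 of 13617, DN3b γδ+ 900 of 13471 and DN4 γδ+ 419 of 9318. Thymocytes of the first 3 libraries held Cd79b at 40.9, 49.3 and 48.5 CPM. Transcript lengths are medians over basic protein-coding transcripts of GENCODE vM21 (GRCm38). Copies were sought with BLAST 2.17.0 at 95% identity. Python 3.11.15, numpy 2.4.6, scipy 1.17.1, R 4.3.3 and edgeR 4.0.16 (TMM factors) were used.

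Named members were the 5 with the highest mean CPM, the 4 highest and 4 lowest ratios over WT DN3a in 5 libraries, and 12 picked for their role; Mrpl9, Mrpl17, Mrpl19, Mrps10, Mrpl40, Mrps11, Mrpl46, Mrpl49 and Mrpl51 were named after their values were seen. Members and lists were chosen with earlier results of these data known.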

Additional observations from a re-analysis of the deposited data

Results flagged for a closer look

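Mrps28 differed between γδ+ and γδ- cells in opposite directions at the 2 stages. Its log2 ratio of γδ+ over γδ- was 0.78 at DN3b and -1.17 at DN4. The negative value at DN4 was shared by most members, whose median there was -0.66 with 46 of 78 at least 1.5-fold lower, against 18% of features. The members' median in the B cells of these DN4 libraries was -0.56, and -0.67 in the full set of B barcodes. The difference between the stages was not tested, as each group is 1 library.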

How the results depend on the processing

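The values below are medians of the members' log2 ratios, given in 1 order: over WT DN3a, the γδ- cells of DN3b and of DN4, the γδ+ cells of DN3b and of DN4, Lat-KO DN3 γδ- and Lat-KO DN3 γδint, then DN3b γδ+ over DN3b γδ-, DN4 γδ- over DN3b γδ-, DN4 γδ+ over DN3b γδ+ and Lat-KO DN3 γδint over γδ-. The settings with a limit of 5 cell cycle UMIs and the stricter B cells were chosen after seeing the data. TMM scaling gave 0.96, 0.93, 0.86, 0.011, -0.10, 0.073, -0.14, 0.0062, -0.85 and 0.074, and totals without cytosolic ribosomal protein and mitochondrially encoded genes gave 0.51, 0.52, 0.36, -0.12, -0.065, 0.15, -0.20, 0.041, -0.48 and 0.12. Less the median in the full set of B barcodes they were -0.27, -0.19, -0.21, -0.15, -0.091, -0.063, 0.049, 0.11, 0.062 and 0.12, so 7 of the 10 changed sign. That set includes barcodes with at least 10 T cell marker UMIs. Less the median in the stricter set the values were 0.32, 0.10, 0.11, -0.12, 0.14, 0.30, -0.24, -0.30, -0.18 and 0.13. Barcodes with at most 1 cell cycle UMI gave 0.24, 0.12, 0.28, -0.16, 0.094, 0.35, 0.022, -0.11, -0.51 and 0.23, with as few as 37 barcodes in a library. Those with fewer than 5 gave 0.35, 0.27, 0.33, -0.15, 0.084, 0.43, 0.0085, -0.083, -0.48 and 0.22, and those with at least 5 gave 0.41, 0.40, 0.34, 0.021, 0.0033, 0.35, -0.10, 0.0047, -0.32 and 0.21. Without the 8% of barcodes with the most UMIs, DN4 γδ- was at 0.62 and DN4 γδ+ at -0.10 over DN3a and at -0.67 over DN3b γδ+. The causes of these differences were not tested. With no quality filter, a minimum of 10 T cell marker UMIs or no filter on low values, all 10 medians stayed within the limits given with them. Of members at least 1.5-fold above DN3a in DN3b γδ-, DN4 γδ- and DN3b γδ+ (41, 37 and 32), 10, 5 and 3 passed 2-fold, against 9.87%, 7.59% and 10.2% of features; among barcodes with at least 5 cell cycle UMIs 22, 14 and 6 passed 1.5-fold, against 12.8%, 8.6% and 13.3%. For Lat-KO DN3 γδint, 11 were at least 2-fold higher and 11 lower, against 13.9% and 4.63%, and of 37 members lower in DN4 γδ+ than in DN3b γδ+, 4 passed 2-fold, against 6.62%. At 2000 UMIs a barcode held 11 to 17 members. With 1 library per group the spread between mice or sorts is unknown, and B cell ratios rest on few UMIs per member.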
